A study of Mus musculus with 24 samples.

Results

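*Bap1* and 9 genes for partners of its protein in the Polycomb repressive deubiquitinase complex (PR-DUB) were followed in RNA-seq of mouse embryonic stem cells (ESCs). The 10 genes, *Bap1*, *Asxl1*, *Asxl2*, *Asxl3*, *Foxk1*, *Foxk2*, *Hcfc1*, *Ogt*, *Kdm1b* and *Mbd6*, were taken by symbol from a table of 26264 genes. The rule names symbols and no measured value, but the genes were picked with earlier results of these data known. Each had a single entry that passed the filter on low counts in every fit. The question was whether the partner genes change in RNA level when BAP1 protein is depleted, read with the GC content of the transcripts in view.

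The cells were 2 monoclonal ESC lines, 1 clone each, so a difference between the lines is a difference between these clones. BAP1-AID ESCs carry an auxin-inducible degron (AID) with an HA epitope, fused to the C-terminal end of BAP1, and UTX-AID ESCs carry it at the N-terminal end of UTX, the H3K27 demethylase. Both stably overexpress TIR1, the adaptor through which auxin (indole-3-acetic acid, IAA) directs a tagged protein to degradation, so TIR1 was present with and without IAA. IAA acts on the protein. Each line was grown in serum and LIF, left without (−IAA) or given IAA (+IAA), and sampled at 0, 3 or 6 h of retinoic acid (RA) given without LIF. IAA was added before RA, so the time in IAA grew with the time in RA. UTX-AID +IAA cells received IAA with BAP1 not tagged, and there IAA degrades UTX. They are thus no test of IAA alone. In a difference between the clones, the loss of BAP1, the loss of UTX and the clone cannot be told apart. The 12 groups had 2 libraries each, and whether the 2 came from separate cultures is not stated, so the p-values measure the spread between these libraries, which may be technical.

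BAP1 is the catalytic subunit of PR-DUB and takes monoubiquitin off histone H2A (H2AK119ub1), the mark that the Polycomb repressive complex PRC1 writes. An ASXL protein must bind BAP1 for full activity, and FOXK1 and FOXK2 bring the complex to DNA. HCFC1, OGT, KDM1B and MBD5 or MBD6 join it as further subunits. OGT is also the enzyme that puts O-GlcNAc on proteins and that cleaves HCFC1.

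The tag site is shown because the degron was placed there in the gene whose RNA is counted. It lies in mm39 at chr14:30980767-30980796 on the plus strand, at the end of the coding sequence in exon 17 of 17, and is given 5′ to 3′ from the reference with the stop codon in capitals.
Bap1 end of coding sequence: tctcgcccctacaaggccaaacgccagTGA
The tag was joined in frame ahead of that stop codon. Gene counts do not separate tagged from untagged transcript, and the degron acts on protein, so *Bap1* counts are no measure of the depletion.

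On mm39 the *Bap1* gene lies at chr14:30973011-30984932. *Asxl1* lies at chr2:153187730-153245927, *Asxl2* at chr12:3476787-3556869 and *Asxl3* on chromosome 18. *Foxk1* lies at chr5:142387240-142447766 and *Foxk2* at chr11:121150786-121201060. *Hcfc1* at chrX:72986388-73010953 and *Ogt* at chrX:100680557-100727963 are both X-linked. *Kdm1b* lies at chr13:47196713-47241312 and *Mbd6* at chr10:127117825-127124936. *Hcfc1* and *Mbd6* are on the minus strand and the other members on the plus strand.

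Depth was even, at 42018795 to 54034789 counts per library, and a count of 3 corresponded to 0.0555 to 0.0714 CPM (counts scaled to library size, the usual normalised read count). All 8 markers fixed for ESCs were above 1 CPM in every arm, with a sum of 4012 to 4893 CPM per library. The summed level was at most 5.81 CPM for 5 fibroblast markers, of which 1 was at 0 in every library, at most 7.74 CPM for 4 markers of extraembryonic endoderm and at most 15.6 CPM for 3 of trophoblast. These are bulk libraries, so fewer cells of a type and less RNA per cell cannot be told apart.

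The members spanned a wide range of levels. Per kilobase of transcript, the median over the 12 BAP1-AID libraries was highest for *Hcfc1*, at 94.7 CPM per kb (81.1 to 100.1). *Asxl1* followed at 46.0 CPM per kb and *Ogt* at 38.2 CPM per kb, with overlapping ranges. *Bap1* was at 17.1 CPM per kb, *Foxk2* at 15.5 and *Asxl2* at 12.1, each overlapping its neighbour in that order. *Foxk1*, at 7.30 CPM per kb, overlapped *Mbd6*, at 6.54. *Kdm1b*, at 2.18 CPM per kb, and *Asxl3*, at 0.261, stood below and apart. *Asxl1* was thus the most abundant of the 3 ASXL genes and *Asxl3* the least, with 85 to 209 counts per library in BAP1-AID and 17 to 95 in UTX-AID. In UTX-AID ESCs, *Ogt* at 51.8 and *Hcfc1* at 49.6 CPM per kb overlapped at the top, and *Asxl1* came next at 26.2.

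**Figure D1:**
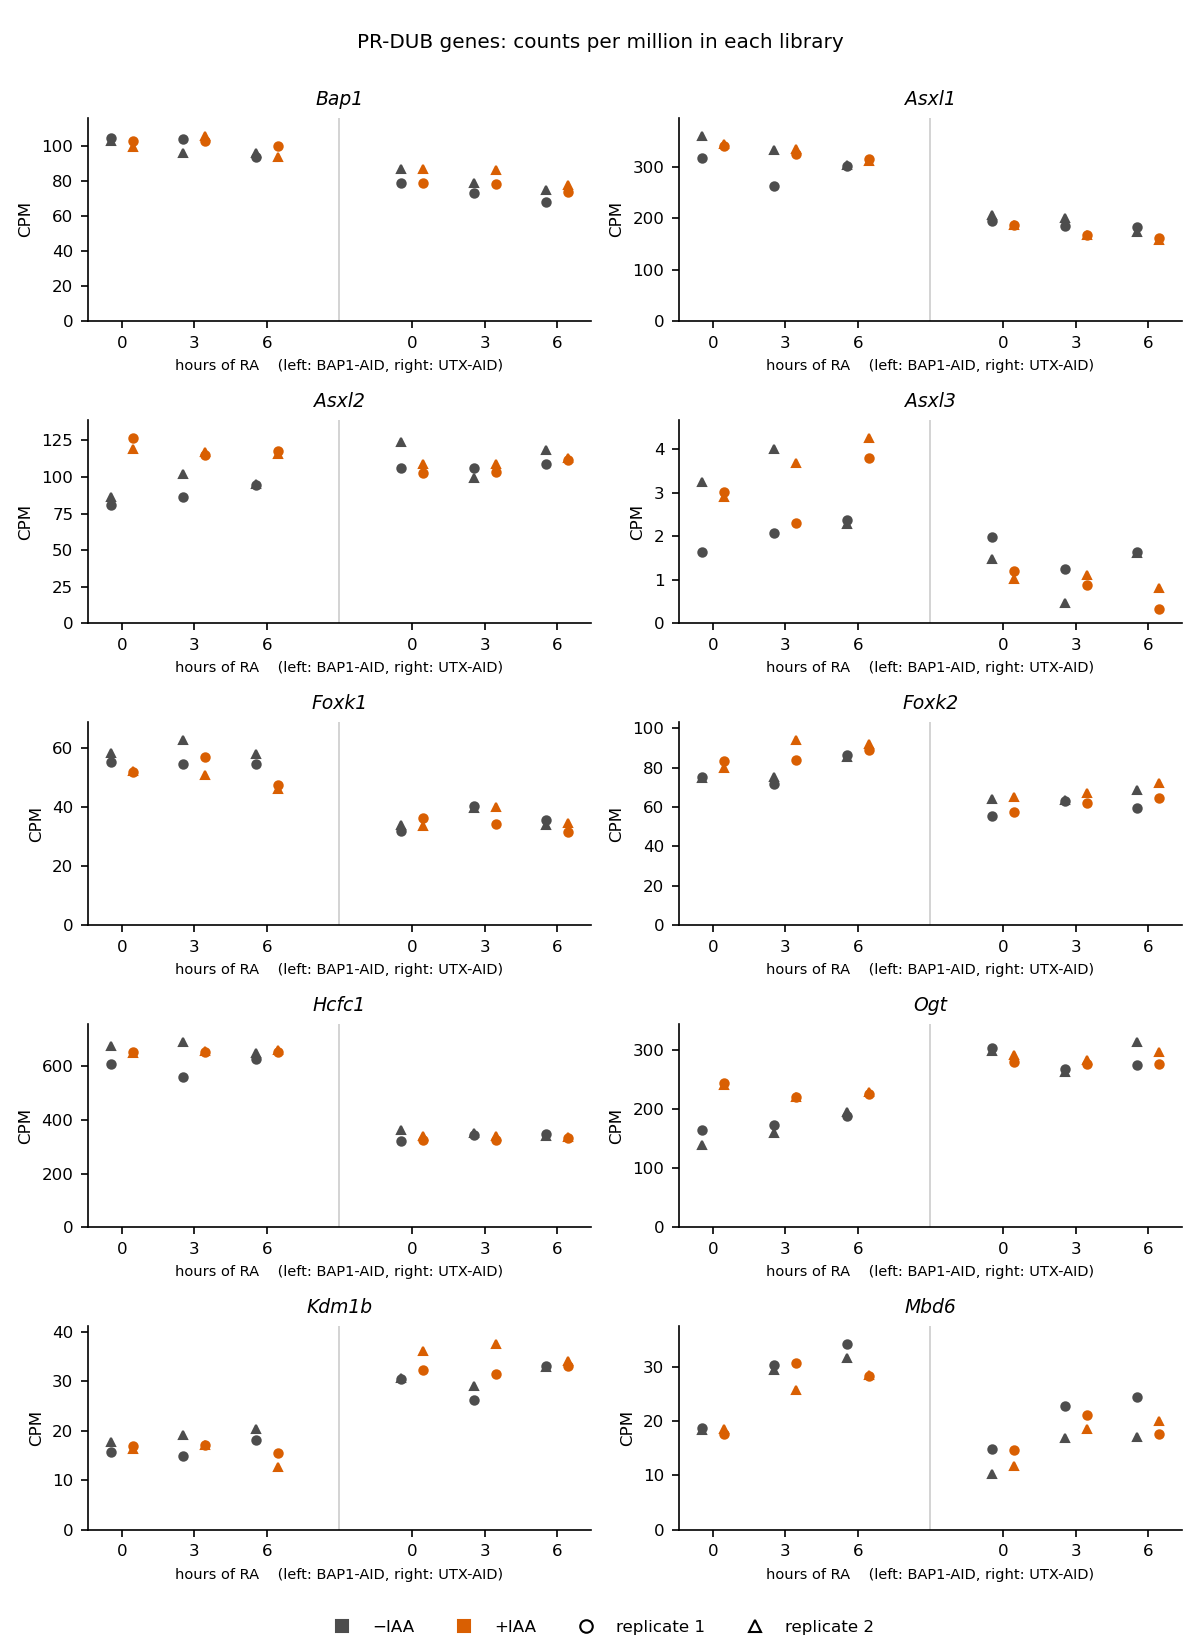
Normalised read count (CPM, linear axis from 0) of the 10 genes in each of the 24 libraries, by hours of RA, with BAP1-AID on the left and UTX-AID on the right of each panel, −IAA in grey and +IAA in orange, and replicates 1 and 2 as circles and triangles. *Ogt* in BAP1-AID runs from 139 to 195 CPM without and from 220 to 245 CPM with IAA, and *Mbd6* is lowest at 0 h of RA in both clones.

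*Bap1* mRNA did not pass the test between the arms of its own degron line. It was at 93.3 to 105 CPM without IAA (median 99.3) and at 93.8 to 106 CPM with IAA (median 101), and the arms overlapped at each time. Averaged over the RA times, +IAA against −IAA gave a log2 fold change of 0.0034 (95% confidence interval −0.08 to 0.09, adjusted p = 0.973 from edgeR's quasi-likelihood fit, adjusted by Benjamini-Hochberg across every gene tested, as is each adjusted p here). After the correction for GC content and length described below, the value was 0.11 (0.03 to 0.20, adjusted p = 0.0515), and at each time both libraries with IAA were above both without. Here and below, no share of all genes is given for arms that lie apart, so this is description and not read as support. Of 19 alternative fits 1 called *Bap1*, the correction with the replicate number as a block (adjusted p = 0.0413). Apart from these corrected fits the alternatives were uncorrected, so they do not bear on the corrected value. In UTX-AID ESCs the *Bap1* value was 0.07 (−0.03 to 0.16, adjusted p = 0.527), and the difference between the clones was 0.04 (−0.09 to 0.18, adjusted p = 0.705). *Bap1* shares 14.1% of its exon bases with *Dnah1* and 4.40% with *Phf7* on the other strand, and whether the counting used strand is not stated. Those neighbours had medians of 23 and 123 counts in BAP1-AID, against at least 4608 for *Bap1*.

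Within a clone the level of *Bap1* moved little, over 93.3 to 106 CPM in BAP1-AID and 67.9 to 87.0 CPM in UTX-AID. By Pearson's r of log2 CPM over the 24 libraries, centred within each clone, the genes most like it among 16815 were *Cnksr3* (r = 0.844), *Abhd17c* (0.805), *Pgp* (0.792), *Gfer* (0.790) and *Cdk5r2* (0.790). For *Pgp* r was 0.38 within BAP1-AID and 0.905 within UTX-AID. *Cnksr3*, *Abhd17c*, *Gfer* and *Cdk5r2* were at 0.657 to 0.758 within BAP1-AID and 0.819 to 0.914 within UTX-AID. The partner genes were not near the top of that order, with r from −0.647 (*Mbd6*) to 0.23 (*Asxl1*). The log2 CPM used here were not corrected for the trend along GC content described below. The libraries share their composition of reads, and no p is attached to these values.

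The arms of BAP1-AID differed along GC content, which bears on every value that follows. Relative to the average library of the clone, the Spearman correlation of expression with transcript GC content over 10712 genes was 0.221 to 0.473 in the −IAA and −0.532 to −0.281 in the +IAA libraries. In UTX-AID it was −0.235 to 0.129 and −0.045 to 0.129. Across genes, the log2 fold change with IAA had a rank correlation with GC content of −0.631 in BAP1-AID against 0.042 for UTX-AID. A correction by smooth curves of GC content and transcript length for each library took these to 0.01 and 0.017. The 10 members cover most of the range, from *Kdm1b* (42.4% GC), *Ogt* (43.0%), *Asxl2* (43.8%) and *Asxl3* (46.0%) through *Asxl1* (51.7%), *Foxk2* (53.1%) and *Bap1* (54.4%) to *Foxk1* (56.2%), *Hcfc1* (56.4%) and *Mbd6* (63.3%). The labels name no preparation batch, so a batch that followed the arms and an effect of IAA or BAP1 loss along GC content cannot be told apart. The IAA results in BAP1-AID and the differences between clones are therefore given uncorrected and corrected. In UTX-AID the correction moved the averaged IAA values of the members by at most 0.02.

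**Figure D2:**
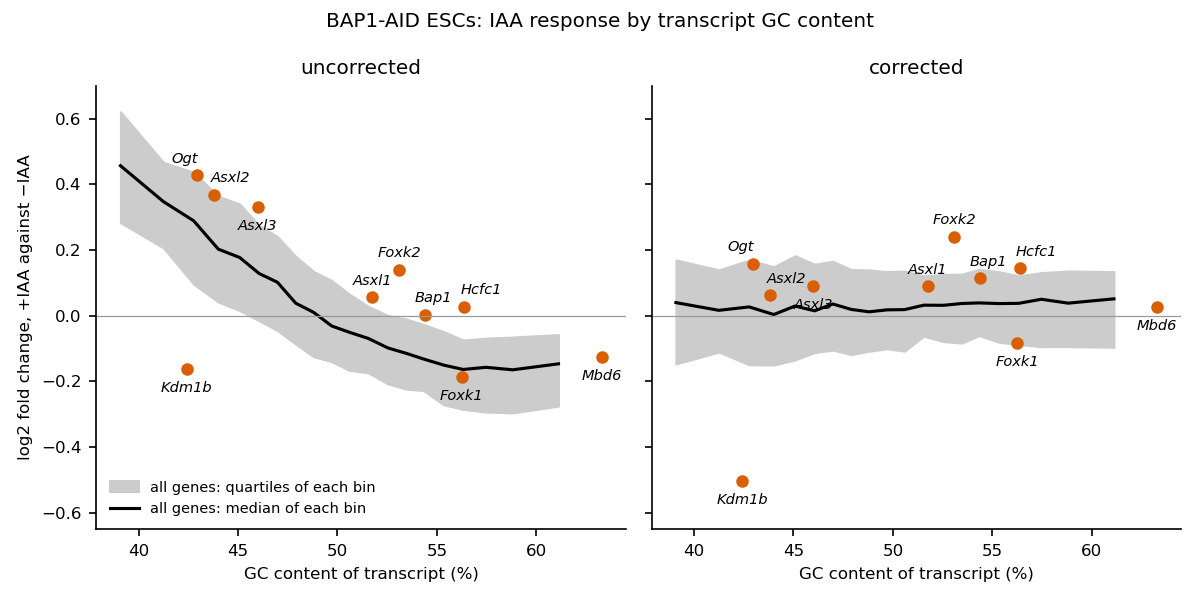
Log2 fold change of +IAA against −IAA in BAP1-AID ESCs, averaged over 0, 3 and 6 h of RA, against the GC content of the transcript (%), before (left) and after (right) the correction. The line and band are the median and quartiles over all genes in bins of GC content and the points are the 10 members. *Ogt* and *Asxl2* sit near the upper edge of the band before the correction and move down with other AT-rich genes. *Kdm1b* sits below the band in both panels, at −0.16 and −0.50.

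In BAP1-AID ESCs, cells given IAA had higher *Ogt*, *Asxl2* and *Foxk2* and lower *Foxk1*. These are 4 of 10 members, and 36.1% of the 15695 genes tested passed the same test, so the count is near the background. By direction, 3 members were higher against 17.9% of all genes, and 1 was lower against 18.2%. After the correction 4 of 10 members again passed, with a background of 28.3%, but only *Ogt* and *Foxk2* were among them in both. *Hcfc1* joined on the higher side (16.4% of all genes) and *Kdm1b* on the lower (11.9%), while *Asxl2* and *Foxk1* no longer passed. The sizes were small in both fits. The members ran from −0.19 to 0.43 on the log2 scale uncorrected, with a median of 0.04 against −0.04 over all genes tested, and from −0.50 to 0.24 corrected, with a median of 0.09 against 0.02.

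**Figure D3:**
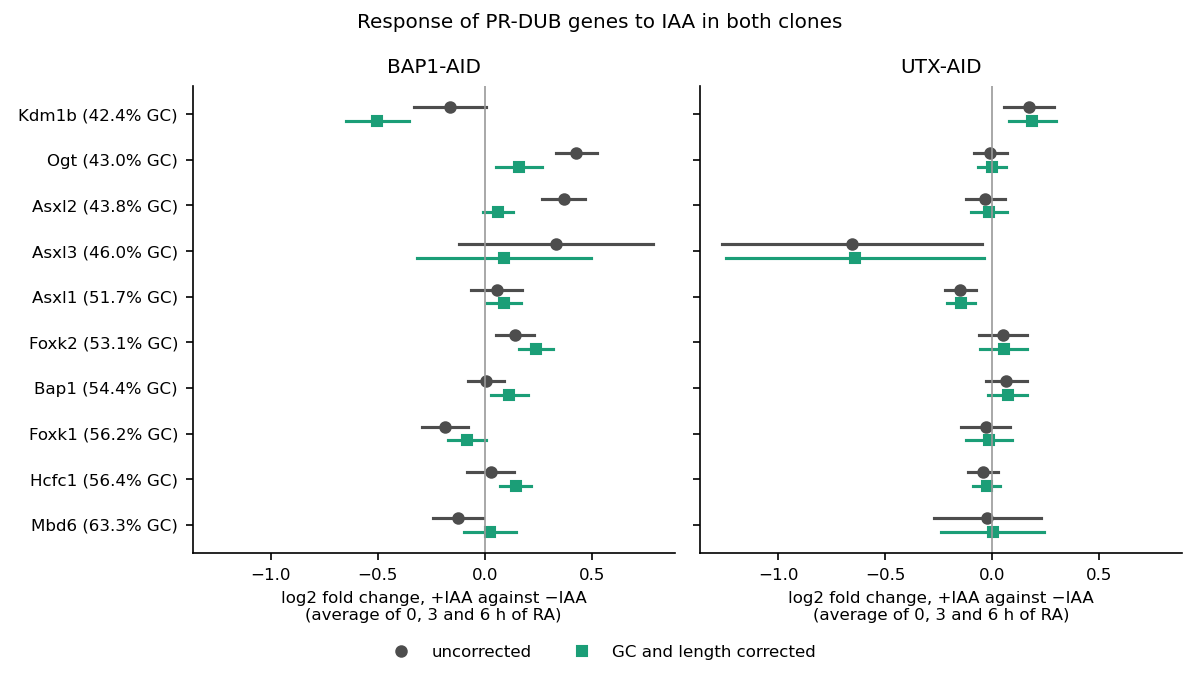
Log2 fold change of +IAA against −IAA, averaged over 0, 3 and 6 h of RA, for the 10 genes ordered by GC content in BAP1-AID (left) and UTX-AID (right) ESCs. Points are estimates and bars 95% confidence intervals from the edgeR fit of the 12 libraries of each clone, uncorrected in grey and corrected for GC content and length in green. *Ogt* falls from 0.43 to 0.16 and *Kdm1b* from −0.16 to −0.50 with the correction in BAP1-AID, and the UTX-AID estimates move by at most 0.02.

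*Ogt* gave the largest uncorrected value. Without IAA it was at 165 and 139 CPM at 0 h, 172 and 160 CPM at 3 h, and 189 and 195 CPM at 6 h of RA. With IAA it was at 245 and 241 CPM at 0 h, 220 and 221 CPM at 3 h, and 226 and 229 CPM at 6 h. All 6 libraries with IAA were above all 6 without. The averaged log2 fold change was 0.43 (0.33 to 0.52, adjusted p = 1.55e-05), a 1.35-fold higher level, where genes of like GC content had a median of 0.29 (quartiles 0.10 and 0.44). The correction took off 0.27 and left 0.16 (0.05 to 0.27, adjusted p = 0.0306), or 1.12-fold. On the corrected scale the arms overlapped, at 153 to 203 CPM without and 199 to 212 CPM with IAA, through the 6 h libraries. *Ogt* passed the test in all 19 alternative fits. Apart from the correction with and without the replicate block, these were uncorrected. The corrected value was not refitted with a library left out. *Ogt* shares no exon with a gene on the other strand in the annotation used.

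The difference in *Ogt* was widest before RA. The log2 fold change was 0.66 at 0 h (adjusted p = 0.000112), 0.40 at 3 h (adjusted p = 0.00706) and 0.22 at 6 h (adjusted p = 0.0872). At 0 h of RA 2 of 10 members passed, *Ogt* and *Asxl2* (background 18.5%), at 3 h 3 passed, *Ogt*, *Asxl2* and *Foxk2* (13.3%), and at 6 h 3 passed, *Asxl2*, *Foxk1* and *Kdm1b* (12.5%). The counts at 3 and 6 h rested on single libraries. Leaving out 1 library changed them, and it also changed the share of all genes that passed. The lowest count at 3 h came without +IAA replicate 2 of that time, and at 6 h without any 1 of the 6 h or +IAA 3 h libraries. Corrected, *Ogt* was higher at 0 h by 0.31 (adjusted p = 0.0368) and gave 0.16 at 3 h (adjusted p = 0.304) and 0.0074 at 6 h (adjusted p = 0.980). Whether the response differed between times was tested as an interaction, in which longer IAA and longer RA cannot be told apart. For *Ogt*, 6 h against 0 h gave −0.44 (−0.68 to −0.21, adjusted p = 0.161), and −0.30 corrected (adjusted p = 0.396). DESeq2 in place of edgeR gave the same size with an adjusted p of 0.00543. By edgeR 0 of 10 members passed the BAP1-AID interaction at 3 h and 0 passed it at 6 h, with 1 and 3 at an unadjusted p under 0.05 and 0 and 1 passing by DESeq2. The share of all genes that passed by edgeR's adjusted p was 0% for 3 h and 0.153% for 6 h. No share of all genes is given for unadjusted p or for DESeq2. Those member counts thus have no background and are not read as an excess.

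In UTX-AID ESCs *Ogt* did not follow. It was at 263 to 313 CPM without and 276 to 297 CPM with IAA, with a log2 fold change of −0.0093 (−0.09 to 0.07, adjusted p = 0.952). The UTX-AID response minus the BAP1-AID response was −0.46 (−0.58 to −0.33, adjusted p = 6.66e-06) uncorrected and −0.18 (−0.31 to −0.05, adjusted p = 0.0467) corrected.

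Of the O-GlcNAc and UDP-GlcNAc genes listed beside *Ogt*, 1 of 6 rose in BAP1-AID uncorrected and 0 fell, beside 17.9% and 18.2% of all genes. *Oga*, for the hydrolase that removes O-GlcNAc, rose by 0.24 (adjusted p = 0.00378). *Gnpnat1*, of UDP-GlcNAc synthesis, was at 0.11 (adjusted p = 0.0584) and *Gfpt2*, of its first step, at −0.11 (adjusted p = 0.110; −0.03 corrected, adjusted p = 0.609). Corrected, with 16.4% of all genes higher and 11.9% lower, 2 of 6 rose, *Oga* by 0.16 (adjusted p = 0.00446) and *Gnpnat1* by 0.22 (adjusted p = 0.00161), and *Gfpt1* fell by 0.28 (adjusted p = 0.0206).

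*Hcfc1*, for the chromatin-bound host cell factor and substrate of OGT, was at 559 to 690 CPM without IAA and 651 to 662 CPM with it. The −IAA libraries spread on both sides of the +IAA ones. The log2 fold change was 0.03 (−0.08 to 0.14, adjusted p = 0.726). On the corrected scale the arms did not overlap, at 547 to 634 CPM and 652 to 705 CPM, and *Hcfc1* was higher by 0.14 (0.07 to 0.22, adjusted p = 0.00773). UTX-AID gave −0.04 (−0.11 to 0.03, adjusted p = 0.604), and the difference between the clones was −0.09 (adjusted p = 0.365) uncorrected and −0.19 (adjusted p = 0.00798) corrected. *Hcfc1* shares 8.98% of its exon bases with *Gm56677* on the other strand, which has no entry among the genes counted. The lowest value was in the −IAA library of replicate 1 at 3 h, where *Hcfc1* was at 559 and *Asxl1* at 263 CPM, against 690 and 332 CPM in replicate 2. Without the −IAA replicate 2 library at 3 h, 7 of 10 members passed instead of 4, and 43.1% of all genes instead of 36.1%.

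Of the ASXL genes, whose products bind BAP1 and switch on its activity, *Asxl2* passed uncorrected and 0 of the 3 passed corrected. *Asxl2* was at 80.8 and 86.4 CPM at 0 h, 86.6 and 102 CPM at 3 h, and 94.3 and 95.4 CPM at 6 h without IAA. With IAA it was at 127 and 119.1 CPM, 115 and 117 CPM, and 118 and 116 CPM. All 6 libraries with IAA were above all 6 without. It was higher by 0.37 (0.27 to 0.47, adjusted p = 7.52e-05), of which the correction took off 0.31, leaving 0.06 (−0.0078 to 0.13, adjusted p = 0.177). Its UTX-AID value was −0.03 (−0.12 to 0.06, adjusted p = 0.809). The difference between the clones was −0.42 (adjusted p = 5.84e-05) and corrected −0.10 (−0.21 to 0.011, adjusted p = 0.212). *1110002L01Rik*, which shares 2.65% of the *Asxl2* exon bases on the other strand, also rose in BAP1-AID, by 0.33 (adjusted p = 0.000828; 0.40 corrected, adjusted p = 0.000223), with a median of 2313 counts.

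*Asxl1* was at 263 to 360 CPM without and 312 to 344 CPM with IAA in BAP1-AID, with a log2 fold change of 0.06 (−0.06 to 0.18, adjusted p = 0.475) and 0.09 corrected (0.0084 to 0.17, adjusted p = 0.0945). It shares 4.23% of its exon bases with *2500004C02Rik* on the other strand, which had a median of 51.5 counts in BAP1-AID and 57 in UTX-AID. *Asxl1* was the member that passed the averaged test between the arms of UTX-AID ESCs. There it was at 195 and 207, 184 and 200, and 182 and 173 CPM without IAA at 0, 3 and 6 h, and at 186 and 186, 168 and 169, and 162 and 158 CPM with IAA. At each time both libraries with IAA were below both without. It fell by 0.15 on the log2 scale (−0.22 to −0.08, adjusted p = 0.0291), and by 0.15 corrected (adjusted p = 0.0212). This was 1 of 10 members with 2.62% of 16268 genes passing (2.82% corrected), and it passed in 9 of 19 alternative fits, with adjusted p from 0.000366 to 0.101. At single times 0 of 10 members passed in UTX-AID at 0, 3 or 6 h by edgeR, with 0, 2 and 2 at an unadjusted p under 0.05. DESeq2 passed 1 member at 3 h, *Asxl1* (adjusted p = 0.0495), and 0 at 0 or 6 h. The backgrounds by edgeR's adjusted p were 0.043%, 0.264% and 0.0307%. They do not apply to the counts by unadjusted p or by DESeq2, for which no share of all genes is given. Those counts are therefore not read as an excess.

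*Asxl3* had the fewest counts of the members. It was at 1.64 to 4.0 CPM without and 2.31 to 4.25 CPM with IAA in BAP1-AID, and at 0.473 to 1.98 and 0.322 to 1.20 CPM in UTX-AID. The arms overlapped in both clones. The log2 fold change in BAP1-AID was 0.33 (−0.12 to 0.79, adjusted p = 0.246), and 0.09 corrected (−0.32 to 0.50, adjusted p = 0.780). In UTX-AID it was −0.66 (−1.26 to −0.05, adjusted p = 0.277), and −0.64 corrected (adjusted p = 0.274). The clones differed by −1.004 (−1.74 to −0.27, adjusted p = 0.0404) uncorrected and −0.74 corrected (adjusted p = 0.133), and this passed in 12 of 30 alternative fits.

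The FOXK genes, for the forkhead proteins that recruit BAP1, moved apart. *Foxk2* was at 75.3 and 74.7 CPM at 0 h, 71.8 and 75.1 CPM at 3 h, and 86.5 and 85.5 CPM at 6 h without IAA. With IAA it was at 83.5 and 79.9 CPM, 83.9 and 93.9 CPM, and 88.7 and 92.1 CPM. At each time both libraries with IAA were above both without, although the arms overlapped over all times. *Foxk2* rose by 0.14 (0.05 to 0.23, adjusted p = 0.0168). Genes of like GC content had a median of −0.11, and the correction raised its value to 0.24 (0.16 to 0.32, adjusted p = 0.000558), or 1.18-fold, the largest rise among the members in that fit. It passed in all 19 alternative fits, of which only the correction with and without the replicate block were corrected. *Foxk1* was at 54.4 to 62.5 CPM without and 46.0 to 56.8 CPM with IAA. It fell by 0.19 (−0.29 to −0.08, adjusted p = 0.0111), with a median of −0.16 over genes of like GC content, and corrected it was at −0.08 (−0.17 to 0.0070, adjusted p = 0.161).

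In UTX-AID ESCs *Foxk2* gave 0.05 (−0.06 to 0.16, adjusted p = 0.713) and *Foxk1* −0.03 (−0.14 to 0.08, adjusted p = 0.855). The response of *Foxk2* differed between the clones by −0.11 (−0.26 to 0.04, adjusted p = 0.316) uncorrected and −0.21 (−0.35 to −0.07, adjusted p = 0.0353) corrected. That of *Foxk1* differed by 0.14 (−0.014 to 0.29, adjusted p = 0.187) and 0.05 corrected (adjusted p = 0.691). *Foxk2* shares 3.43% of its exon bases with *Cybc1* on the other strand, which fell by 0.53 in BAP1-AID (adjusted p = 0.00016). Corrected, *Cybc1* gave −0.39 (adjusted p = 0.00152).

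*Kdm1b*, for the H3K4 demethylase LSD2, went against its GC content. It was at 15.8 and 17.7 CPM at 0 h, 14.8 and 19.1 CPM at 3 h, and 18.0 and 20.4 CPM at 6 h without IAA. With IAA it was at 16.8 and 16.2 CPM, 17.1 and 17.2 CPM, and 15.6 and 12.8 CPM. The arms overlapped except at 6 h, where both libraries with IAA were lower. The averaged value was −0.16 (−0.33 to 0.0063, adjusted p = 0.125), and at 6 h *Kdm1b* fell by 0.46 (adjusted p = 0.0426). Genes as AT-rich as *Kdm1b* had a median of 0.29, and the corrected values were at 17.6 to 21.8 CPM without and 10.8 to 16.0 CPM with IAA, with no overlap. On that scale *Kdm1b* fell by 0.50 (−0.65 to −0.36, adjusted p = 0.00023), to 0.706-fold, the largest corrected difference among the members. By time, the corrected fall was 0.47 at 0 h (adjusted p = 0.0232) and 0.77 at 6 h (adjusted p = 0.00244), and 3 h gave −0.27 (adjusted p = 0.192). The corrected fit passed 3 of 10 members at 0 h, *Foxk2*, *Ogt* and *Kdm1b* (background 10.7%), 1 at 3 h, *Foxk2* (5.43%), and 1 at 6 h, *Kdm1b* (7.57%).

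The UTX-AID value of *Kdm1b* was of the other sign. It was at 26.2 to 33.2 CPM without and 31.5 to 37.5 CPM with IAA, with a log2 fold change of 0.17 (0.05 to 0.29, adjusted p = 0.127). The difference between the clones was 0.32 (0.11 to 0.52, adjusted p = 0.0195) uncorrected and 0.67 (0.50 to 0.85, adjusted p = 1.25e-05) corrected. *Kdm1b* shares 16.1% of its exon bases with *Dek* and 6.66% with *Tpmt*, both on the other strand. *Dek* had a median of 13306 counts in BAP1-AID against 627 to 1044 for *Kdm1b*, and rose by 0.46 with IAA (adjusted p = 3.78e-06; 0.10 corrected, adjusted p = 0.122). *Tpmt* was at −0.21 (adjusted p = 0.166) and fell by 0.42 corrected (adjusted p = 0.0133). Their part in the *Kdm1b* values was not tested.

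*Mbd6*, for a PR-DUB subunit with a methyl-CpG-binding domain, was at 18.3 to 34.1 CPM without and 17.6 to 30.6 CPM with IAA in BAP1-AID. The log2 fold change was −0.13 (−0.24 to −0.0093, adjusted p = 0.0876) and 0.03 corrected (−0.10 to 0.15, adjusted p = 0.795). In UTX-AID it was −0.02 (−0.27 to 0.23, adjusted p = 0.967). Among the members it had the highest GC content, and the correction shifted it up by 0.15.

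Set against the 10 members together, the response to IAA differed between the clones for 5 uncorrected, *Asxl1*, *Asxl2*, *Asxl3*, *Ogt* and *Kdm1b*, with 25.9% of 16816 genes passing. Corrected, 5 passed with a background of 19.9%, namely *Asxl1* (−0.26, adjusted p = 0.00101), *Foxk2*, *Hcfc1*, *Ogt* and *Kdm1b*. *Asxl1*, *Ogt* and *Kdm1b* thus passed both ways. The *Asxl1* difference, −0.22 uncorrected (−0.36 to −0.08, adjusted p = 0.0161), passed in all 30 alternative fits.

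*Mbd6* rose with RA in both clones. RA came with LIF removal and time in culture, and the 3 cannot be told apart. Over the 4 BAP1-AID libraries of each time, it lay between 17.6 and 18.7 CPM before RA, between 25.8 and 30.6 CPM after 3 h and between 28.3 and 34.1 CPM after 6 h. In UTX-AID it was at 10.3 to 14.8, 16.9 to 22.8 and 17.0 to 24.4 CPM. In both clones every library with RA was above every library at 0 h. Averaged over the arms, *Mbd6* rose in BAP1-AID by 0.69 at 3 h (0.55 to 0.83, adjusted p = 1.37e-05) and by 0.76 at 6 h (0.62 to 0.91, adjusted p = 3.24e-06), or 1.61-fold and 1.70-fold. In UTX-AID it rose by 0.65 at 3 h (0.34 to 0.96, adjusted p = 0.00934) and by 0.64 at 6 h (0.33 to 0.95, adjusted p = 0.00699). Corrected, BAP1-AID gave 0.62 and 0.80, and UTX-AID gave 0.62 and 0.61, and all 4 comparisons passed in each of 19 alternative fits. The 3 h and 6 h values share the 0 h libraries. Of the exon bases of *Mbd6*, 3.88% are shared with *Dctn2* and 1.43% with *Ddit3* on the other strand. *Dctn2* gave 0.03 and 0.0098 at 3 and 6 h in BAP1-AID, and *Ddit3* rose there by 0.72 at both times (adjusted p = 0.00911 and 0.00481) and gave 0.16 and 0.33 in UTX-AID (adjusted p = 0.745 and 0.322).

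**Figure D4:**
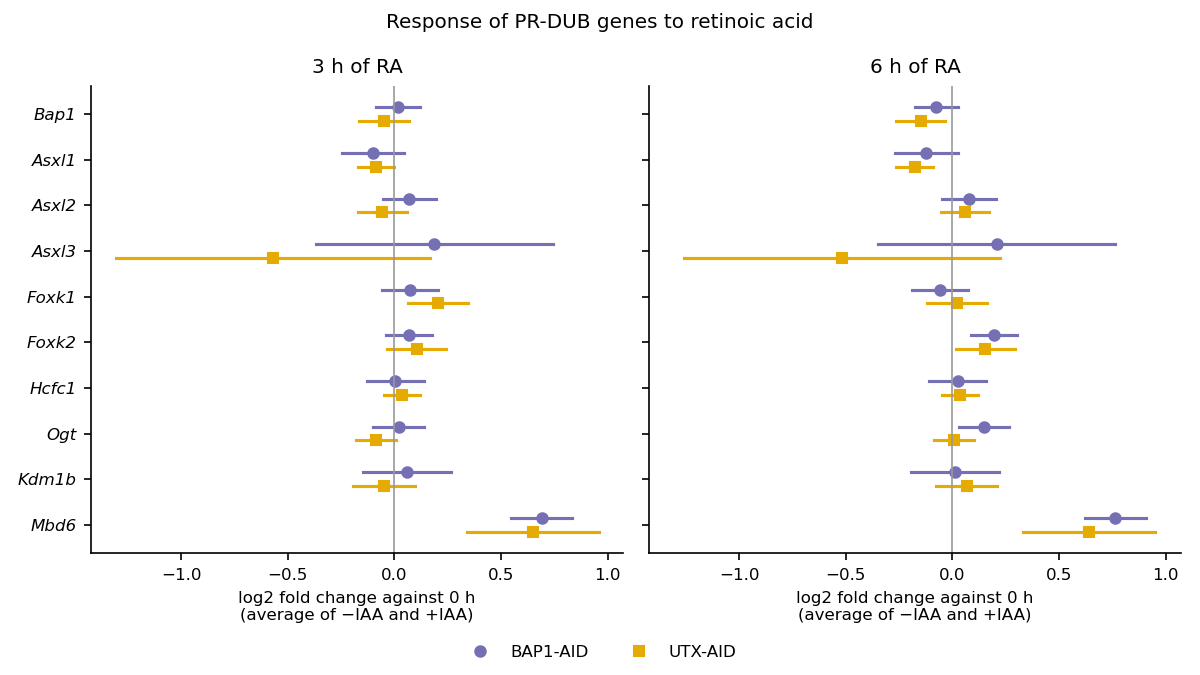
Log2 fold change of 3 h (left) and 6 h (right) of RA against 0 h, averaged over −IAA and +IAA, for the 10 genes in BAP1-AID (purple circles) and UTX-AID (yellow squares) ESCs, with 95% confidence intervals from the uncorrected edgeR fit of each clone. *Mbd6* lies between 0.64 and 0.76 in all 4 comparisons, and the *Asxl3* intervals are the widest.

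The other members gave few calls with RA. At 3 h *Mbd6* was 1 of 10 members passing in BAP1-AID (background 11.2%) and 1 of 10 in UTX-AID (8.26%). At 6 h 2 of 10 passed in BAP1-AID (24%), with *Foxk2* higher by 0.20 (0.09 to 0.30, adjusted p = 0.0123, and 0.23 corrected, adjusted p = 0.00227). That rise passed in 12 of 19 alternative fits, and *Foxk2* gave 0.16 in UTX-AID (0.02 to 0.29, adjusted p = 0.150). At 6 h 2 of 10 passed in UTX-AID (12.4%), with *Asxl1* lower by 0.18 (−0.26 to −0.09, adjusted p = 0.00775), in all 19 alternative fits. *Asxl1* in BAP1-AID gave −0.12 (−0.27 to 0.03, adjusted p = 0.231). *Bap1* at 6 h gave −0.07 (−0.18 to 0.03, adjusted p = 0.298) in BAP1-AID and −0.15 (−0.27 to −0.03, adjusted p = 0.0969) in UTX-AID.

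Whether IAA changed the RA response was tested as the interaction. In UTX-AID 0 of 10 members passed by edgeR at 3 h and 0 at 6 h, with 0 at an unadjusted p under 0.05 and 0 passing by DESeq2 at either time. Of all genes there 0.0123% passed by edgeR's adjusted p at 3 h and 0% at 6 h. For *Mbd6* the interaction at 6 h was −0.19 (−0.48 to 0.10, adjusted p = 0.688) in BAP1-AID and −0.19 (−0.81 to 0.43, adjusted p = 1.00) in UTX-AID, intervals wide enough to hold a change in the RA response of either direction.

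The untreated clones differed in most members. At 0 h without IAA, 9 of 10 passed between UTX-AID and BAP1-AID, against 52.6% of 16816 genes. *Ogt* was higher in UTX-AID by 0.99 (0.83 to 1.14, adjusted p = 1.65e-10), at 303 and 298 CPM against 165 and 139 CPM. *Kdm1b* was higher by 0.87 (adjusted p = 1.79e-06) and *Asxl2* by 0.46 (adjusted p = 5.19e-05). *Dek* and *Tpmt*, which share exon bases with *Kdm1b*, were higher by 0.98 (adjusted p = 1.18e-07) and 1.175 (adjusted p = 8.92e-06). Corrected, *Dek* gave −0.47 (adjusted p = 0.000734) and *Tpmt* 0.45 (adjusted p = 0.0416). Their part in the *Kdm1b* difference was not tested. *Hcfc1* was lower by 0.91 (−1.08 to −0.75, adjusted p = 1.17e-09), at 321 and 362 CPM against 609 and 677 CPM. *Foxk1* was lower by 0.78 (adjusted p = 9.91e-08), *Asxl1* by 0.76 (adjusted p = 4.34e-08), *Mbd6* by 0.56 (adjusted p = 0.0086), *Foxk2* by 0.33 (adjusted p = 0.00316) and *Bap1* by 0.32 (adjusted p = 0.00114). *Asxl3* gave −0.50 (−1.38 to 0.38, adjusted p = 0.348).

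This split also ran along GC content, with *Kdm1b*, *Ogt* and *Asxl2*, the members of lowest GC content, higher in UTX-AID and the other 7 at lower estimates. Over 10783 genes the rank correlation of the clone difference with GC content was −0.547, and −0.014 after the correction. Corrected, 5 of 10 members passed, against 47.8% of all genes. *Ogt* kept 0.32 (0.16 to 0.48, adjusted p = 0.00124), *Hcfc1* was lower by 0.34 (adjusted p = 6.01e-05), *Asxl1* by 0.26 (adjusted p = 0.00138) and *Foxk1* by 0.21 (adjusted p = 0.0339). *Bap1* turned direction, to 0.24 higher in UTX-AID (0.07 to 0.40, adjusted p = 0.0165). Clone and any batch of library preparation cannot be told apart here. The +IAA response of *Ogt* and *Asxl2* in BAP1-AID and their difference from UTX-AID both use the BAP1-AID −IAA libraries, which held the lowest *Ogt* and *Asxl2* values of the series.

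**Figure D5:**
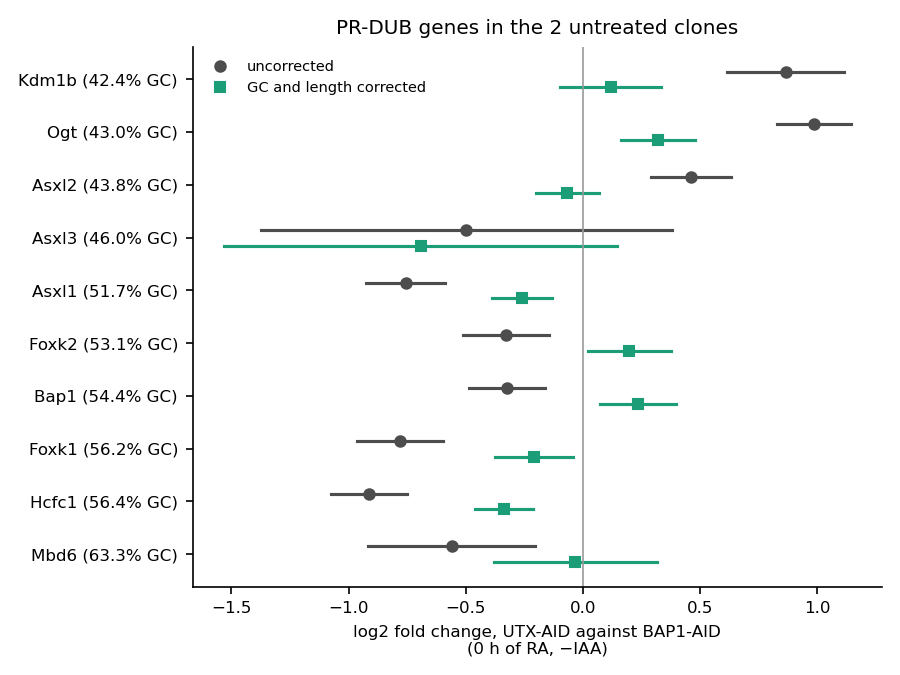
Log2 fold change of UTX-AID against BAP1-AID ESCs at 0 h of RA without IAA for the 10 genes ordered by GC content, uncorrected in grey and corrected for GC content and length in green, with 95% confidence intervals from the edgeR fit of all 24 libraries. Uncorrected values run from −0.91 (*Hcfc1*) to 0.99 (*Ogt*), and the correction brings those of *Asxl2*, *Kdm1b* and *Mbd6* within 0.12 of 0.

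Genes that could stand in for a PR-DUB subunit were counted from lists of paralogues and of other H2A deubiquitinases. In BAP1-AID cells given IAA, 3 of 6 paralogues were higher and 2 lower uncorrected, and 2 were higher and 1 lower corrected. Of all genes 17.9% were higher and 18.2% lower uncorrected, and 16.4% and 11.9% corrected, which is the background for each list that follows. *Uchl5*, the deubiquitinase closest to BAP1 in domain structure, rose by 0.37 (adjusted p = 0.00011) and by 0.22 corrected (adjusted p = 0.025). *Mbd5*, the paralogue of *Mbd6*, rose by 0.49 (adjusted p = 0.00414) and gave 0.18 corrected (adjusted p = 0.203). *Uchl3*, a further ubiquitin C-terminal hydrolase, rose by 0.18 (adjusted p = 0.00453) and gave 0.03 corrected (adjusted p = 0.700). *Hcfc2*, the paralogue of *Hcfc1*, fell by 0.35 (adjusted p = 0.00739) and by 0.41 corrected (adjusted p = 0.00489). Of 8 H2A deubiquitinases 2 were higher and 0 lower, and corrected 2 were higher and 1 lower. *Mysm1* rose by 0.71 (adjusted p = 2.97e-05; 0.27 corrected, adjusted p = 0.0283), *Usp16* by 0.28 (adjusted p = 0.00143; 0.12 corrected, adjusted p = 0.109), and *Usp44* gave 0.21 (adjusted p = 0.0628; −0.02 corrected). Corrected, *Usp21* rose by 0.22 (adjusted p = 0.00963) and *Usp46* fell by 0.24 (adjusted p = 0.00588).

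Writers of the mark that BAP1 removes gave 7 higher and 2 lower of 11 uncorrected (17.9% and 18.2% of all genes), and 3 higher and 1 lower corrected (16.4% and 11.9%). *Rnf2*, for the main E3 ligase RING1B, rose by 0.43 (adjusted p = 3.23e-06) and by 0.12 corrected (adjusted p = 0.0247). *Bmi1*, for a PCGF subunit of canonical PRC1, rose by 0.60 (adjusted p = 3.18e-05) and by 0.32 corrected (adjusted p = 0.00333). *Kdm2b*, whose product brings PRC1 to CpG islands, fell by 0.44 (adjusted p = 1.2e-05) and by 0.34 corrected (adjusted p = 6.05e-05). Of 4 genes for other proteins that bind or modify BAP1, 1 rose in each fit (17.9% and 16.4% of all genes), *Brca1*, by 0.43 (adjusted p = 7.37e-06; 0.28 corrected, adjusted p = 0.000922). *Ube2o* gave −0.11 (adjusted p = 0.0656; 0.05 corrected, adjusted p = 0.326) and *Bard1* 0.16 (adjusted p = 0.0977; 0.0093 corrected, adjusted p = 0.922). In UTX-AID the 5 lists gave 1 call, with 2.62% of all genes called, *Uap1*, higher by 0.20 (adjusted p = 0.0435; 0.17 corrected, adjusted p = 0.0638).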

How the data were processed

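The 24 RNA-seq libraries of polyadenylated RNA from 2 mouse ESC clones fell into 12 groups of 2, grouped by their labels. The expected counts (estimated from read coverage) were deposited as whole numbers per gene by the authors, who aligned reads with HISAT2 2.2.1 to mm39, used Samtools 1.19 and quantified genes with StringTie 2.2.1. The annotation, the strand setting and the read length are not given in the sources used here, nor is the vehicle of the −IAA cells. Reads of overlapping genes can therefore have been split between them.

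Genes with a count of 10 in enough libraries and a total of 15 were kept (edgeR filterByExpr), giving 15695 genes for BAP1-AID, 16268 for UTX-AID and 16816 for all libraries. Counts were scaled by TMM (factors 0.98 to 1.028) and tested with edgeR 4.0.16 (limma 3.58.1, R 4.3.3) by the quasi-likelihood F-test, fitting the 12 libraries of a clone, or all 24 for contrasts between clones. Calls are Benjamini-Hochberg adjusted p under 0.05 over all genes, and intervals are 95%. CPM values are TMM-scaled over 24 libraries. The correction used natural splines (5 degrees of freedom) of each library's log2 CPM deviation on GC content and log2 transcript length, over genes above 1 log2 CPM, as offsets. GC content, lengths and coordinates are from GENCODE on mm39, matched by symbol for 23897 of 26264 genes. Depth allows counting error only to be judged, and a count of 3 was taken as the floor.

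Alternatives were DESeq2 1.42.0, RLE scaling, no low-count filter, the replicate number as a block, the correction with and without that block, 1 fit of all libraries, and each library left out. Only those named with the correction were corrected, and the rest used uncorrected counts. The scripts were tested on simulated counts that held no trend along GC content, so the correction was not tested that way. The 10 genes and the lists were chosen with earlier results of these data known. Named are all 10 genes, the 3 genes of each list with the smallest adjusted p for IAA in BAP1-AID, and the 5 genes most like *Bap1*. *Gfpt1*, *Uap1*, *Hcfc2*, *Usp21*, *Usp46* and the genes overlapping a member were named after their values were seen. Figures used matplotlib 3.10.9.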

Additional observations from a re-analysis of the deposited data

Results flagged for a closer look

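For 5 of the 10 genes the response to IAA, averaged over RA times, differed between the clones by a test of the difference itself, with UTX-AID minus BAP1-AID on the log2 scale. In 4 the UTX-AID response was the lower one, at −0.2229 for *Asxl1* (adjusted p = 0.0161), −0.4178 for *Asxl2* (adjusted p = 5.84e-05), −1.0038 for *Asxl3* (adjusted p = 0.0404) and −0.4551 for *Ogt* (adjusted p = 6.66e-06). For *Kdm1b* it was the higher one, at 0.317 (adjusted p = 0.0195). After the correction for GC content and length the values of *Asxl1*, *Ogt* and *Kdm1b* passed and those of *Asxl2* and *Asxl3* did not. Each clone stands for its own libraries and loses its own tagged protein, so clone, batch and the protein lost cannot be told apart.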

How the results depend on the processing

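Over 180 single-gene results and their alternatives, 3482 values kept their direction where called and their side of the threshold, 102 lost the call, 45 gained it and 7 turned direction. All 7 were in the untreated clone difference under the correction. *Bap1* went to 0.2352, *Asxl2* to −0.0658 and *Foxk2* to 0.1988, and with the replicate block as well to 0.1436, −0.0768 and 0.1302, with *Mbd6* at 0.0554. The correction took the number of members called from 3 to 1 for IAA at 3 h and from 3 to 1 at 6 h in BAP1-AID, and from 9 to 5 between the untreated clones. The share of all genes called went from 13.3% to 5.43%, from 12.5% to 7.57% and from 52.6% to 47.8%. With the replicate block as well the member counts were 1, 1 and 4, and IAA averaged over times in UTX-AID went from 1 to 2. The replicate numbers do not pair the samples (correlation of deviations −0.035 to 0.0502 in BAP1-AID and −0.0181 to 0.0586 in UTX-AID), and the replicate block alone took RA in UTX-AID from 1 to 2 at 3 h and from 2 to 4 at 6 h (4 also with the correction). No filter gave 0 for IAA at 6 h in BAP1-AID. DESeq2 gave 1 in place of 0 for the interaction at 6 h in BAP1-AID and for IAA at 3 h in UTX-AID. A fit of all 24 libraries gave 1 in place of 2 for RA at 6 h in BAP1-AID and 0 in place of 1 for averaged IAA in UTX-AID. The share of all genes called is not given for the settings other than the correction. Those counts are therefore not read as a result about the members. The cause was not tested.

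Leaving out 1 library in turn was done without the correction only, so the ranges below do not bear on the corrected values. Averaged IAA log2 fold changes in BAP1-AID were 0.39 to 0.47 for *Ogt* and 0.33 to 0.43 for *Asxl2*. *Foxk2* gave 0.13 to 0.18 and *Foxk1* −0.22 to −0.13. At 3 h the ranges were 0.35 to 0.46 for *Ogt*, 0.18 to 0.42 for *Asxl2* and 0.19 to 0.35 for *Foxk2*. At 6 h they were 0.27 to 0.31 for *Asxl2*, −0.30 to −0.22 for *Foxk1* and −0.59 to −0.30 for *Kdm1b*. The number of members called changed in the averaged, 3 h and 6 h comparisons, and so did the share of all genes called. It also changed for RA in BAP1-AID, most when a −IAA 3 h library was left out, and for the interaction at 6 h there. Averaged IAA in UTX-AID kept its call only without −IAA 0 h replicate 1, −IAA 3 h replicate 1 or −IAA 6 h replicate 2. The number of members called also changed for RA at 3 h in UTX-AID and for the clone difference in IAA response. The *Asxl3* values rest on 17 to 95 counts per library in UTX-AID.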
